A study of Mus musculus with 9 samples.

Results

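The genes of major histocompatibility complex (MHC) class I antigen presentation and of the immunoproteasome were examined in 4T1, a line from a mammary carcinoma of a BALB/c mouse that grows and spreads in immunocompetent animals. They are 10 genes chosen by symbol, B2m, H2-K1, H2-D1, Tap1, Tap2, Tapbp, Nlrc5, Psmb8, Psmb9 and Psmb10, of the 54532 genes in the deposited table. All 10 were among the 13915 genes with enough counts to be tested. Polyadenylated RNA was sequenced from 9 libraries, 3 in each of 3 groups. The Au_TCPP cells received Au/Cu-TCPP(Fe)-PEG, a nanomaterial that carries gold and that the labels describe as acting like a glucose oxidase and consuming glutathione (GSH). The Cu_TCPP cells received Cu-TCPP(Fe)-PEG, the material without gold, described as consuming GSH. The Control cells received medium alone. All groups share the 4T1 line and high-glucose DMEM with 10% serum, and treatment lasted 24 h. The amount of each material was not stated, so a match in dose cannot be assumed. No source says that the 3 libraries of a group came from different cultures; the p-values therefore reflect the spread among these libraries, which may be technical.

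Class I molecules show short peptides from the cell's own proteins to CD8 T cells. The proteasome cuts proteins into peptides, the TAP transporter carries them into the endoplasmic reticulum (ER), and tapasin helps load them on a heavy chain paired with beta-2-microglobulin. In cells that have seen interferon, the catalytic subunits encoded by Psmb8, Psmb9 and Psmb10 take the places of those encoded by Psmb5, Psmb6 and Psmb7 and make the immunoproteasome, which favours peptides that fit class I grooves. NLRC5 is a transactivator of class I genes that acts through an enhanceosome of RFX, CREB and NF-Y factors on their promoters. Tumour cells with little class I are poorly seen by CD8 T cells.

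Of the 10 genes, 7 lie on chromosome 17 of the mm10 build, from Tapbp at 33915899 to H2-D1, which ends at 35267499, the region of the mouse MHC. B2m lies on chromosome 2, and Nlrc5 and Psmb10 lie on chromosome 8. Tap1 and Psmb9 are divergent neighbours whose RefSeq starts are 225 bases apart. RefSeq sequence for the 250 bases before the start (build GRCm38.p6) was matched by symbol for 8 genes, all but Tap2 and Nlrc5. Of these windows 5 are shown, because their genes went different ways in the treated cells and a reader can compare the motifs. They are B2m at chr2:122147437-122147686 on the plus strand, H2-K1 at chr17:34000348-34000597 on the minus strand, H2-D1 at chr17:35262844-35263093, Tap1 at chr17:34187306-34187555 and Psmb8 at chr17:34197945-34198194, the last 3 on the plus strand; the Tap1 window covers the start of Psmb9. Capitals mark exact matches, on either strand, to an interferon-stimulated response element (ISRE, GAAA repeated after a gap of 2 or 3 bases), a STAT site (GAS, TTCNNNGAA), an NF-kB site (kB, GGG and TTCCC separated by 2 bases), the NF-Y box CCAAT and the cAMP-response half-site TGACG. Bases run 5′ to 3′ towards the start.
B2m: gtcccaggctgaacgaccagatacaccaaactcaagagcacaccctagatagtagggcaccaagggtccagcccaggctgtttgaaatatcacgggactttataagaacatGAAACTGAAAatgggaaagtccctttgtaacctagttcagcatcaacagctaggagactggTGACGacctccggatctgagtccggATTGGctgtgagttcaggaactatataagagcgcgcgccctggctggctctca
H2-K1: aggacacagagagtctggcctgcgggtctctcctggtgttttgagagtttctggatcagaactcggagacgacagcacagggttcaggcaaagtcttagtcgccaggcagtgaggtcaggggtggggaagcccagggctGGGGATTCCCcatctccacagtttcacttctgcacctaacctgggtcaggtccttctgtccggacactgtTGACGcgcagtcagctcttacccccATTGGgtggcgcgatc
H2-D1: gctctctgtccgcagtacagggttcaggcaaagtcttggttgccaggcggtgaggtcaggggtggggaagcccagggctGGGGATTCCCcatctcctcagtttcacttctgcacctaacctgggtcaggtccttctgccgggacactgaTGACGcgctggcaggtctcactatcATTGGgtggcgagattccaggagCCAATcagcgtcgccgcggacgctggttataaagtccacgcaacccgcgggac
Tap1: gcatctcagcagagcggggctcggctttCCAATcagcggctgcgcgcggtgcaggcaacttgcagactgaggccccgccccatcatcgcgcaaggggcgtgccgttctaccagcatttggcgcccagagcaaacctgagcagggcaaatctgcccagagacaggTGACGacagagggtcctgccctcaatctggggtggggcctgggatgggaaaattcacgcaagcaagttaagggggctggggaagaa
Psmb8: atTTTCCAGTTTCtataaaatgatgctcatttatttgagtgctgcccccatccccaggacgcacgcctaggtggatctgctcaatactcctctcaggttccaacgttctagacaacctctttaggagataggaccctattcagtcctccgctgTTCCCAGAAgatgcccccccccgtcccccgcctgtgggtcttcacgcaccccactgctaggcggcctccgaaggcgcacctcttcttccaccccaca

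An ISRE match stood in the windows of B2m and Psmb8, and 5.20% of the 32851 RefSeq windows of the same length hold one. The single GAS match was in Psmb8, against 7.02% of all windows. A kB match stood in H2-K1 and H2-D1, against 1.53% of all windows. CCAAT was found in 6 of the 8 windows, against 33.9% of all, and TGACG in 5 of the 8, against 17.8% of all. In B2m, H2-K1 and H2-D1, TGACG was followed on the same strand, after 20 bases, by ATTGG, the reverse complement of CCAAT. This pair at this spacing stood in 30 of the 32851 windows, or 0.0913%, on either strand. Among 14 other class I and class I-like heavy chain genes with a window, H2-M3 held it. The pair has the layout of the X and Y boxes, the elements known to carry NF-Y and the RFX and CREB factors on class I promoters. No window of Tap1, Psmb8, Psmb9, Psmb10 or Tapbp held it. These are matches of letters in one window, chosen after the sequences were seen, and not sites of binding. An exact pattern passes over elements that differ from it in any base. A window without a match, such as H2-K1 or H2-D1 for the ISRE, may therefore still hold an element.

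**Figure D1:**
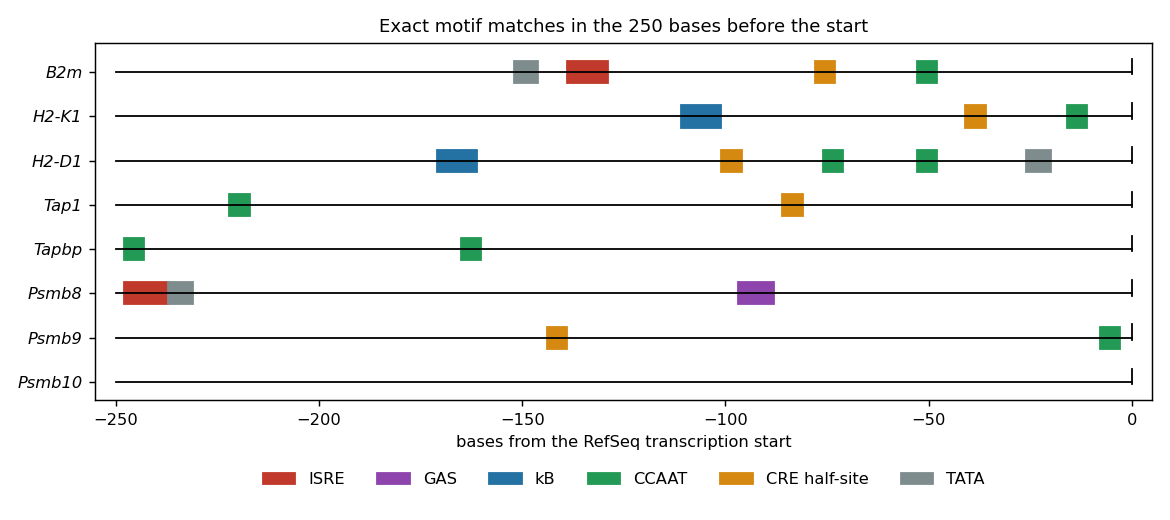
Exact motif matches in the 250 bases before the RefSeq start (position 0, vertical tick) of 8 of the 10 genes; coloured boxes span each match on either strand, and TATA stands for TATAAA. The half-site and CCAAT boxes of B2m, H2-K1 and H2-D1 stand 20 bases apart, and Psmb10 holds no match.

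Total counts were between 15477324 and 17494776 per library. The TMM factors were lower in Au_TCPP than in the other groups, and with library totals alone the median log2 fold change of all genes was −0.43 for Au_TCPP against Control, so changes are given relative to the TMM centre, where it was −0.01. Au_TCPP replicate 2 stood apart from its group: on principal component 3 it stood at −37.5, against 15.8 and 18.5 in the other Au_TCPP libraries. Its mitochondrially encoded share of counts was 2.37% (95% Wilson interval 2.36% to 2.37%, for counting error alone), while the remaining 8 libraries held 1.09% to 1.47%. It was the highest Au_TCPP library for 10 of the 10 genes, but for 38.0% of all genes tested. Values without it are given for the 10 genes against Control, and for other fitted fold changes and list counts where leaving it out matters to the statement. The keratins of simple epithelia Krt8 and Krt18 were at 1387 ± 162 and 1508 ± 268 CPM in Au_TCPP, 1171 ± 80.9 and 813 ± 45.3 CPM in Cu_TCPP and 859 ± 54.1 and 864 ± 30.5 CPM in Control (SD, n = 3). Of 7 epithelial markers tested, 6 rose and 1 fell in Au_TCPP, and 1 rose and 4 fell in Cu_TCPP, each against Control. With library totals alone 3 rose and 2 fell in Au_TCPP, where 2626 of all 13915 genes rose and 7098 fell. Over all genes, with TMM factors, 34.4% rose and 34.7% fell in Au_TCPP, and 19.2% rose and 21.2% fell in Cu_TCPP. CPM are counts scaled to a common library size with TMM factors.

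In medium alone the 10 genes spanned a wide range of levels per length. In Control, B2m was highest at 487 ± 6.31 FPKM (reads scaled by gene length and library size, as deposited), followed by H2-D1 at 173 ± 7.88 FPKM, Tapbp at 56.9 ± 1.55 FPKM and H2-K1 at 35.1 ± 7.01 FPKM (SD, n = 3). The lowest were Psmb8 at 4.29 ± 0.251 FPKM, Nlrc5 at 4.11 ± 0.249 FPKM and Psmb9 at 2.21 ± 0.299 FPKM. Only Psmb8 and Nlrc5 overlapped with their neighbour in that order. Psmb10, Tap2 and Tap1 lay between, at 15.2, 10.4 and 6.39 FPKM. In Au_TCPP, Nlrc5 was last of the 10 at 1.71 ± 0.184 FPKM and Psmb8 stood sixth at 13.5 ± 7.58 FPKM, and from Tapbp down each gene overlapped with its neighbour. In Cu_TCPP, Psmb9 was last at 0.522 ± 0.0874 FPKM.

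The light chain and the classical heavy chains are the parts of the molecule that reach the cell surface. B2m, the invariant light chain, had 1017, 1343 and 885 CPM in Au_TCPP, 327, 279.6 and 332 CPM in Cu_TCPP, and 429.5, 421 and 429 CPM in Control. Its 3 groups did not overlap, with every Au_TCPP library above and every Cu_TCPP library below the medium cells. H2-D1, a classical heavy chain, had 771, 1048 and 713 CPM in Au_TCPP, 316, 346 and 349.6 CPM in Cu_TCPP, and 436, 456 and 473 CPM in Control. It showed the same order without overlap. H2-K1, the other classical heavy chain, had 142, 199 and 112 CPM in Au_TCPP, 81.6, 84.8 and 68.9 CPM in Cu_TCPP, and 80.5, 85.0 and 114 CPM in Control. Control replicate 3 lay above the lowest Au_TCPP library, and Cu_TCPP and Control overlapped. The 4T1 line comes from a BALB/c mouse, whose H2 alleles differ from those of the reference strain, and 12.8% of H2-D1 and 9.63% of H2-K1 50-base transcript windows also occur in other genes, so the division of reads among H2 genes is uncertain.

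The peptide transporter and its loading partner behaved differently. Tap1, one chain of the TAP transporter, had 22.9, 54.4 and 14.6 CPM in Au_TCPP, 14.1, 17.7 and 17.5 CPM in Cu_TCPP, and 36.2, 33.2 and 37.4 CPM in Control. Replicate 2 of Au_TCPP was above every Control library and the other 2 were below. Tap2, the partner chain, had 25.2, 40.3 and 18.2 CPM in Au_TCPP, 16, 20.9 and 17.3 CPM in Cu_TCPP, and 37.8, 41.3 and 40.6 CPM in Control. Here the same Au_TCPP library lay within the Control range. Tapbp, which encodes tapasin, had 183, 288 and 153 CPM in Au_TCPP, 82.9, 99.2 and 93.0 CPM in Cu_TCPP, and 191, 197 and 185 CPM in Control. For Tapbp all Cu_TCPP libraries were far below both other groups. Nlrc5 had 13.8, 16.8 and 13.9 CPM in Au_TCPP, 17.9, 18 and 17.6 CPM in Cu_TCPP, and 37.6, 33.2 and 35.8 CPM in Control. It was the one member for which both treated groups lay entirely below Control.

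The inducible catalytic subunits differed among themselves in level and in spread. Psmb8 had 30.2, 62.3 and 21.3 CPM in Au_TCPP, 2.44, 4.30 and 3.78 CPM in Cu_TCPP, and 11.4, 11.7 and 12.7 CPM in Control. The 3 groups were fully separate. Psmb9 had 6.72, 22.1 and 5.21 CPM in Au_TCPP, 1.53, 2.07 and 2.09 CPM in Cu_TCPP, and 7.0, 8.63 and 9.05 CPM in Control. Cu_TCPP was far below Control, whereas Au_TCPP had 1 library far above it and 2 below it. These levels rest on 66 to 303 reads in Au_TCPP, 27 to 39 reads in Cu_TCPP and 126 to 165 reads in Control. Psmb10 had 46.3, 77.3 and 37.1 CPM in Au_TCPP, 17.7, 23.8 and 20.3 CPM in Cu_TCPP, and 25.6, 27.7 and 26.0 CPM in Control, again without overlap.

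**Figure D2:**
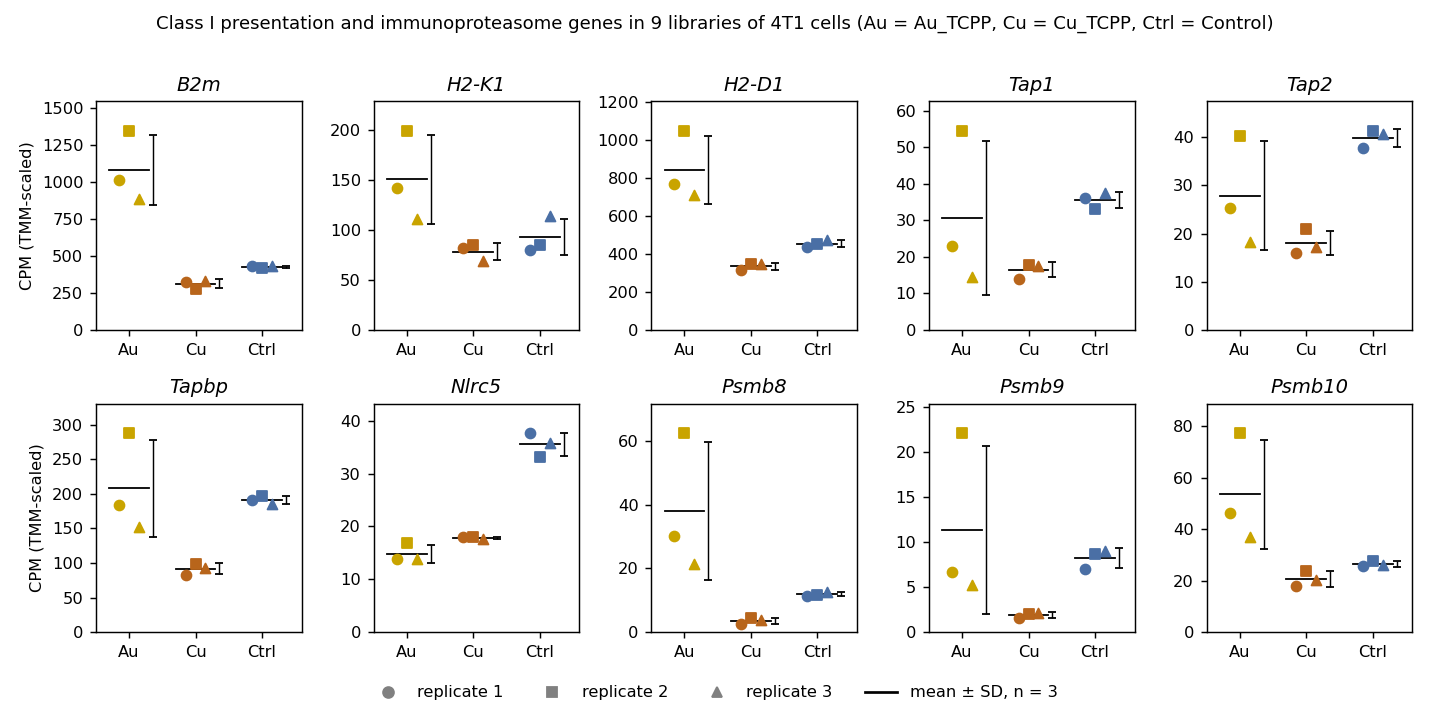
TMM-scaled CPM (linear axes from 0) of the 10 genes in each library; marker shapes give the replicate number, horizontal lines the mean and bars the SD of 3 libraries. Au_TCPP replicate 2 (square) is the highest Au_TCPP library in all 10 panels, and Nlrc5 is lower in both treated groups than in Control.

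The copper material against medium asked how the GSH-consuming material without gold changed these transcripts. Most of the 10 genes were lower: 7 fell, 0 rose and 3 did not pass. Over all genes tested, 21.2% fell and 19.2% rose, or 40.4% in either direction (edgeR adjusted p under 0.05). The median log2 fold change of the 10 genes was −1.03, against −0.01 over all genes. For 9 of the 10, every Cu_TCPP library was below every Control library. The share of all genes separated in this way was not counted, so this 9 has no background to be read against. The largest falls were in the immunoproteasome, in Psmb9 by 2.11 ± 0.54 (log2 ± SE, edgeR adjusted p = 0.0121) and in Psmb8 by 1.76 ± 0.42 (edgeR adjusted p = 0.00894). Psmb10, the remaining inducible subunit, had a log2 fold change of −0.36 ± 0.22, which did not pass (edgeR adjusted p = 0.229).

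For the transporter, Tap2 fell by 1.14 ± 0.22 on the log2 scale and Tapbp by 1.06 ± 0.18 (edgeR adjusted p = 0.00159 and 0.000624). Tap1 had a similar log2 fold change, −1.12 ± 0.42, but did not pass (edgeR adjusted p = 0.0666). Nlrc5 fell by 0.99 ± 0.10 on the log2 scale, a 1.99-fold lower level (edgeR adjusted p = 6.96e-06). Among the 7 genes that fell, B2m and H2-D1 had the smallest changes: B2m by 0.45 ± 0.13 and H2-D1 by 0.43 ± 0.12 on the log2 scale (edgeR adjusted p = 0.0123 and 0.0113). H2-K1, at −0.25 ± 0.19, did not pass (edgeR adjusted p = 0.336). The shared estimate of spread includes the wide Au_TCPP group. Without Au_TCPP replicate 2, or with the 6 libraries of the comparison alone, 9 genes fell, Tap1 with edgeR adjusted p = 6.69e-07 and 1.67e-07 and Psmb10 with 0.0105 and 0.00780, all but H2-K1. Over all genes tested, 3552 of 14232 and 3661 of 13576 fell in these 2 fits. In the authors' deposited table, 9 of the 10 were also lower at an adjusted p under 0.05, all but H2-K1. The share of all genes called there was not counted, so this 9 has no background either.

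Cells that received the gold-bearing material were next compared with the medium cells. Against Control 5 genes rose (B2m, H2-K1, H2-D1, Psmb8 and Psmb10), Nlrc5 fell and 4 did not pass, against 34.4% of all genes that rose and 34.7% that fell. The share of members called is near the background for this comparison, in which 69.1% of genes passed in either direction. Their median log2 fold change was 0.58, against −0.01 over all genes. It was 0.10 without Au_TCPP replicate 2 (−0.06 over all genes) and 0.19 with library totals alone (−0.43 over all genes). This comparison uses the same Control libraries as that of the copper material.

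Psmb8 rose most, with a log2 fold change of 1.67 ± 0.36 (edgeR adjusted p = 0.00239), and Psmb10 rose by 1.02 ± 0.22 on the log2 scale (edgeR adjusted p = 0.00144). B2m rose by 1.34 ± 0.13 on the log2 scale, 2.54-fold (edgeR adjusted p = 3.55e-07). The heavy chains H2-D1 and H2-K1 rose less, by 0.89 ± 0.12 and 0.70 ± 0.19 on the log2 scale (edgeR adjusted p = 1.31e-05 and 0.00710). Nlrc5 fell by 1.26 ± 0.11 on the log2 scale (edgeR adjusted p = 1.02e-07). The remaining log2 fold changes were −0.21 ± 0.41 for Tap1, −0.51 ± 0.22 for Tap2, 0.12 ± 0.18 for Tapbp and 0.47 ± 0.46 for Psmb9. Their edgeR adjusted p-values were 0.663, 0.0531, 0.553 and 0.387. In the authors' deposited table, of the 10 genes 5 were higher and 2 lower, Tap2 being the second lower one with adjusted p = 0.0422. The share of all genes called there was not counted, so these counts have no background.

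These 4 values moved with 1 library. Without Au_TCPP replicate 2, Tap1 fell by 0.95 ± 0.14, Tap2 by 0.90 ± 0.13, Tapbp by 0.21 ± 0.08 and Psmb9 by 0.49 ± 0.19 on the log2 scale, with edgeR adjusted p-values of 1.01e-05, 3.00e-06, 0.0336 and 0.0296. Tapbp and Psmb9 thereby changed sign, and 5 genes rose and 5 fell. Over all 14232 genes tested in that fit, 4856 rose and 5253 fell. The fall of Tap2 also passed in settings that kept replicate 2, such as DESeq2, where its log2 fold change was −0.52 (adjusted p = 0.0320). The same 5 genes still rose, by less: B2m by 1.13 ± 0.08, Psmb8 by 1.09 ± 0.16, H2-D1 by 0.68 ± 0.07, Psmb10 by 0.63 ± 0.12 and H2-K1 by 0.42 ± 0.16 on the log2 scale (edgeR adjusted p from 8.76e-11 to 0.0416). Relative to the mean of the other 2 Au_TCPP libraries, replicate 2 was 1.21 times as high for Nlrc5, 1.41 times for B2m and H2-D1, 2.42 times for Psmb8, 2.90 times for Tap1 and 3.70 times for Psmb9. With library totals alone H2-K1 and Psmb10 no longer passed (edgeR adjusted p = 0.286 and 0.0531), Tap2 fell (adjusted p = 0.00760), and the log2 fold change of Tapbp was −0.28.

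**Figure D3:**
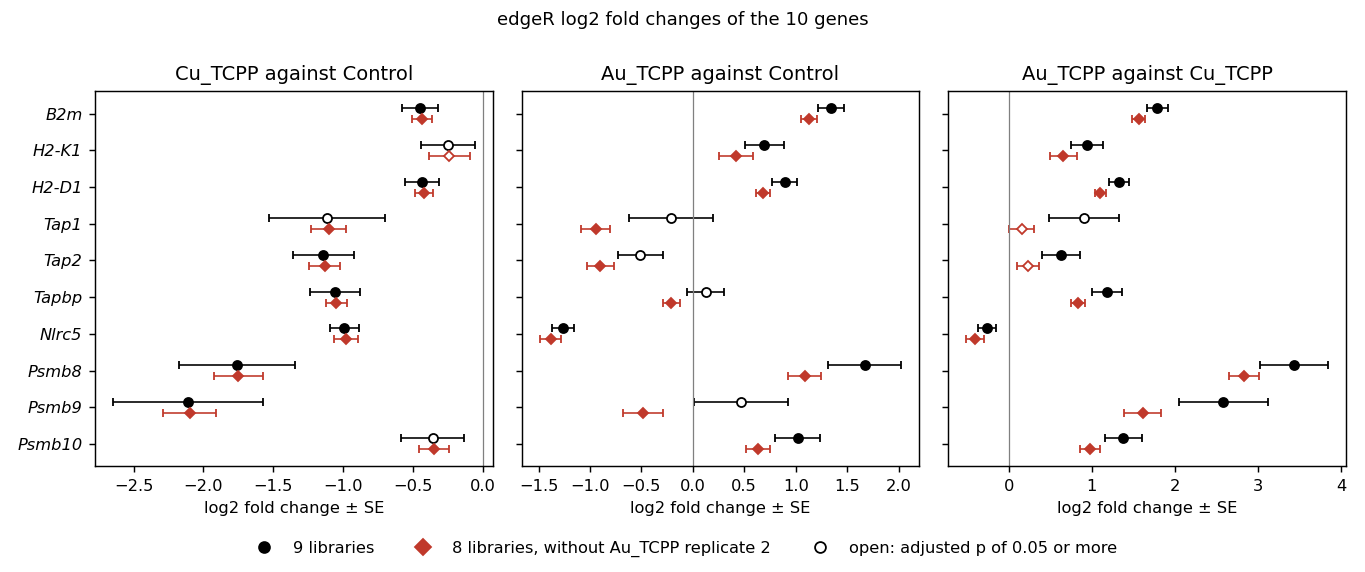
Log2 fold changes (edgeR, first-named group over the second) with their SE for the 10 genes in 3 comparisons, with all 9 libraries (black circles) and without Au_TCPP replicate 2 (red diamonds); open symbols did not pass. In Au_TCPP against Control, Tapbp and Psmb9 move below 0 and Tap1 and Tap2 pass once that library is left out.

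Set against the copper material, the material with gold gave higher levels of most of the 10 genes. Of these 8 rose, Nlrc5 fell and Tap1 did not pass, against 34.6% of all genes that rose and 31.3% that fell (65.9% in either direction). The median log2 fold change was 1.25, against 0.04 over all genes. For 7 of the 10, every Au_TCPP library was above every Cu_TCPP library, but the share of all genes separated in this way was not counted. Psmb8 rose by 3.43 ± 0.41 on the log2 scale, a 10.8-fold difference (edgeR adjusted p = 5.52e-05). Psmb9 rose by 2.58 ± 0.54, B2m by 1.79 ± 0.13, Psmb10 by 1.38 ± 0.22, H2-D1 by 1.32 ± 0.12, Tapbp by 1.18 ± 0.18 and H2-K1 by 0.94 ± 0.19 on the log2 scale (edgeR adjusted p from 2.38e-08 to 0.00200). Without Au_TCPP replicate 2, Psmb8 was 7.14-fold and Psmb9 3.06-fold higher, against 10.8-fold and 5.97-fold with it. The rise of Tap2, 0.63 ± 0.22 on the log2 scale (edgeR adjusted p = 0.0269), was lost without Au_TCPP replicate 2, where the log2 fold change was 0.23 ± 0.13 (edgeR adjusted p = 0.130). Tap1 had 0.90 ± 0.42 (edgeR adjusted p = 0.0940) with that library and 0.16 ± 0.15 without it (edgeR adjusted p = 0.366). The difference in Nlrc5, −0.27 ± 0.11 on the log2 scale (edgeR adjusted p = 0.0444), was −0.002 ± 0.11 with offsets for gene length (edgeR adjusted p = 0.989).

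The balance of inducible to constitutive subunits within each library was compared as a ratio of counts per length, which no scaling between libraries touches. Differences between libraries that depend on gene length can still enter such a ratio. Psmb5, Psmb6 and Psmb7, the constitutive subunits that the immunoproteasome replaces, all rose with the gold-bearing material against Control, by 0.97 ± 0.11, 1.32 ± 0.10 and 1.19 ± 0.12 on the log2 scale (edgeR adjusted p from 4.06e-08 to 1.72e-06). With the copper material Psmb5 rose by 0.35 ± 0.11 on the log2 scale (edgeR adjusted p = 0.0182) and the other 2 did not pass. The ratio of Psmb8 to Psmb5 was 0.112, 0.282 and 0.0733 in Au_TCPP, 0.0157, 0.0227 and 0.0227 in Cu_TCPP, and 0.0868, 0.0919 and 0.0897 in Control. Every Cu_TCPP library was below Control, with a 4.45-fold lower geometric mean, while Au_TCPP lay on both sides of it. The ratio of Psmb9 to Psmb6 was 0.0133, 0.0446 and 0.00997 in Au_TCPP, 0.00826, 0.00825 and 0.00966 in Cu_TCPP, and 0.0364, 0.0419 and 0.0428 in Control. Here 2 of the 3 Au_TCPP libraries were near the Cu_TCPP level and replicate 2 was above Control. The ratio of Psmb10 to Psmb7 was 0.438, 1.02 and 0.329 in Au_TCPP, 0.376, 0.479 and 0.435 in Cu_TCPP, and 0.587, 0.653 and 0.607 in Control.

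With 3 libraries against 3, a two-sided exact permutation test cannot go below 0.1. That exact permutation test gave p = 0.1 for all 3 ratios in Cu_TCPP against Control (0.14 after adjustment over 21 tests), with log2 differences of −2.15 ± 0.18, −2.21 ± 0.11 and −0.52 ± 0.11 (SE), each lower in 3 of 3 libraries. For Au_TCPP against Control the exact permutation p-values were 0.5, 0.4 and 0.7 for the same ratios, with log2 differences of 0.56 ± 0.57, −1.15 ± 0.67 and −0.22 ± 0.49. The rises of Psmb8 and Psmb10 in Au_TCPP thus stood beside rises of their constitutive counterparts. Among the other ratios, H2-D1 to B2m was 0.261 in Au_TCPP, 0.360 in Cu_TCPP and 0.355 in Control (geometric means), and H2-K1 to B2m was 0.0454, against 0.0825 in Cu_TCPP and 0.0711 in Control. Nlrc5 to H2-K1 was 0.0309 in Au_TCPP, 0.0702 in Cu_TCPP and 0.118 in Control. For these 3 ratios every Au_TCPP library was below every library of the other groups (exact permutation p = 0.1, adjusted 0.14). The genes of these pairs differ in length, from 860 nt for B2m to 8493 nt for Nlrc5. With offsets for gene length, the log2 fold changes in Au_TCPP against Control were 0.92 for B2m, 0.76 for H2-D1, 0.57 for H2-K1 and −0.91 for Nlrc5. Each was smaller in size than without offsets, so part of these ratios may follow gene length, which was not tested.

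**Figure D4:**
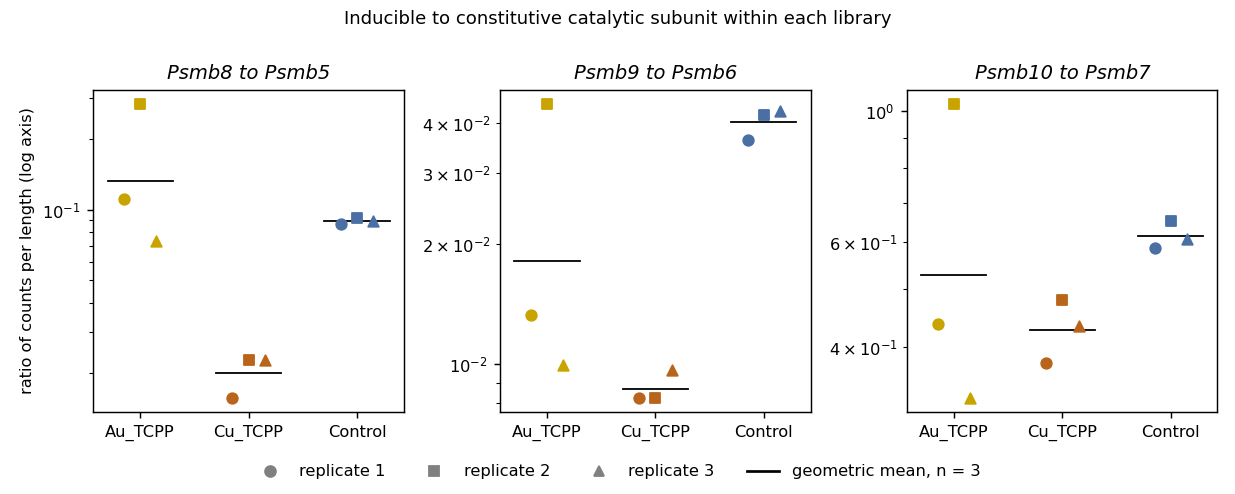
Ratio of counts per length of each inducible catalytic subunit to the constitutive one it replaces, in each library (log axes), with the geometric mean of 3 libraries as a line. The Cu_TCPP libraries lie below all Control libraries in each panel, and Au_TCPP replicate 2 (square) lies above them.

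Tap1 and Psmb9 are transcribed away from each other and their exons overlap by 212 nt on opposite strands. Whether reads were counted by strand was not stated. The pair did not move in step. The ratio of Tap1 to Psmb9 per length was 2.28, 1.65 and 1.87 in Au_TCPP, 6.14, 5.72 and 5.60 in Cu_TCPP, and 3.46, 2.57 and 2.76 in Control. The 3 groups did not overlap, Cu_TCPP being 2.0-fold above Control and Au_TCPP 1.52-fold below it (exact permutation p = 0.1 each, adjusted 0.14). Tapbp overlaps Zbtb22 by 149 nt on the same strand, which makes its reads uncertain there.

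Other genes of the pathway came from lists made for it. Of the 78 tested outside the 10, 22 rose and 29 fell in Cu_TCPP and 46 rose and 12 fell in Au_TCPP, each against Control. Over all genes tested, 19.2% rose and 21.2% fell in Cu_TCPP, and 34.4% rose and 34.7% fell in Au_TCPP. In Au_TCPP against Cu_TCPP 56 of the 78 rose and 10 fell, with 34.6% and 31.3% over all genes. Among 16 other class I and class I-like heavy chains tested, 0 rose, 13 fell and 3 did not pass in Cu_TCPP against Control, with a median log2 fold change of −0.78. In Au_TCPP against Control 6 rose, Mr1 fell and 9 did not pass, and without replicate 2 4 rose and 6 fell, as against 3 and 5 with library totals alone (median log2 fold change −0.22, against 0.20 in the fit with TMM factors). Over all genes in that comparison, 4856 of 14232 rose and 5253 fell without replicate 2. With library totals alone 2626 of 13915 rose and 7098 fell. In Au_TCPP against Cu_TCPP 15 rose and 0 fell, with 12 rises without replicate 2 and 9 with library totals alone. Over all genes the rises there were 4783 of 14232 and 2830 of 13915 in these 2 fits. H2-T23, which encodes the Qa-1 molecule read by NKG2A on natural killer cells, had 29.1, 46.0 and 20.2 CPM in Au_TCPP, 2.44, 3.19 and 2.49 CPM in Cu_TCPP, and 12.8, 14.3 and 14.0 CPM in Control. It was separate in all groups, as Psmb8 was: its log2 fold change was −2.34 ± 0.27 in Cu_TCPP and 1.21 ± 0.23 in Au_TCPP, each against Control (edgeR adjusted p = 3.15e-05 and 0.000342). Mr1, which shows vitamin B metabolites to MAIT cells, fell by 0.81 ± 0.15 in Au_TCPP and by 1.48 ± 0.16 in Cu_TCPP on the log2 scale (edgeR adjusted p = 0.000283 and 7.97e-06).

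Of 4 proteasome activators tested, 4 rose in Au_TCPP against Control, and 2 rose and 2 fell in Cu_TCPP. With library totals alone 2 rose in Au_TCPP, where 2626 of all 13915 genes rose and 7098 fell. Over all genes, with TMM factors, 34.4% rose in Au_TCPP, and 19.2% rose and 21.2% fell in Cu_TCPP. Psme1 and Psme2, the chains of the interferon-inducible PA28 cap, rose in Au_TCPP by 0.78 ± 0.12 and 1.41 ± 0.16 and fell in Cu_TCPP by 0.88 ± 0.12 and 0.79 ± 0.17 on the log2 scale, each against Control (edgeR adjusted p from 3.85e-06 to 0.00251). Psme3, which encodes the nuclear PA28 gamma cap, rose in both, by 0.43 ± 0.08 in Au_TCPP and 0.91 ± 0.08 in Cu_TCPP on the log2 scale (edgeR adjusted p = 0.000345 and 2.06e-06). With library totals alone its rise in Au_TCPP was lost (edgeR adjusted p = 0.997). The other 20S core subunits and assembly factors rose in 16 of 16 cases in Au_TCPP and in 11 of 16 in Cu_TCPP, and 0 fell (13 rose and 0 fell in Au_TCPP with library totals alone). Their median log2 fold changes against Control were 1.20 and 0.37. Psmb8 and Psmb9 in Cu_TCPP therefore fell where 0 of the other core genes did.

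Regulators of class I transcription were measured as well. Of 25 tested, 10 rose and 6 fell in Au_TCPP, and 4 rose and 12 fell in Cu_TCPP, each against Control. Over all genes tested, 34.4% rose and 34.7% fell in Au_TCPP, and 19.2% rose and 21.2% fell in Cu_TCPP. The share of regulators called in Au_TCPP was below the 69.1% of all genes called there. With library totals alone 6 of the 25 rose and 12 fell in Au_TCPP, where 2626 of all 13915 genes rose and 7098 fell. Irf9, the DNA-binding part of the complex that binds ISREs, had 71.0, 90.9 and 54.2 CPM in Au_TCPP, 10.2, 10.4 and 11.9 CPM in Cu_TCPP, and 37.7, 39.5 and 35.7 CPM in Control. It fell by 1.80 ± 0.16 in Cu_TCPP and rose by 0.94 ± 0.14 in Au_TCPP on the log2 scale (edgeR adjusted p = 1.80e-06 and 4.29e-05). Irf7 and Irf1 were picked after their values were seen. Irf7 had log2 fold changes of 2.23 ± 0.36 in Au_TCPP and −2.83 ± 0.50 in Cu_TCPP, each past the threshold (edgeR adjusted p = 0.000423 and 0.00177). Without replicate 2, Irf7 was 3.07-fold higher in Au_TCPP than in Control, against 4.71-fold with it. Irf1, an activator of Tap1 and Psmb9, fell by 1.10 ± 0.24 in Cu_TCPP on the log2 scale, and had 0.30 ± 0.23 in Au_TCPP (edgeR adjusted p = 0.00517 and 0.275), or −0.10 ± 0.11 without replicate 2 (edgeR adjusted p = 0.425) and −0.10 ± 0.27 with library totals alone (edgeR adjusted p = 0.759).

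Jak2, a kinase of the interferon gamma receptor, fell in both, by 0.80 ± 0.08 in Au_TCPP and 0.66 ± 0.08 in Cu_TCPP on the log2 scale (edgeR adjusted p = 8.06e-07 and 2.94e-05). Ifnar1, a chain of the type I interferon receptor, fell in both too, by 0.69 ± 0.08 and 0.26 ± 0.08 on the log2 scale (edgeR adjusted p = 4.56e-06 and 0.0204). Rela, the NF-kB subunit p65, rose by 1.08 ± 0.11 on the log2 scale in Au_TCPP (edgeR adjusted p = 8.38e-07) and had 0.09 ± 0.11 in Cu_TCPP, which did not pass (edgeR adjusted p = 0.569). With library totals alone, the NF-Y subunit genes Nfyb and Nfya went opposite ways in Au_TCPP against Control. Their log2 fold changes were 0.87 ± 0.09 and −0.90 ± 0.08, where the median over all genes was −0.43. With offsets for gene length they were 1.46 ± 0.10 and −0.18 ± 0.08, and that of Nfya did not pass (edgeR adjusted p = 0.0502). Ifng had 0 reads in all 9 libraries, and Ifnb1 had 0 to 3 reads.

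**Figure D5:**
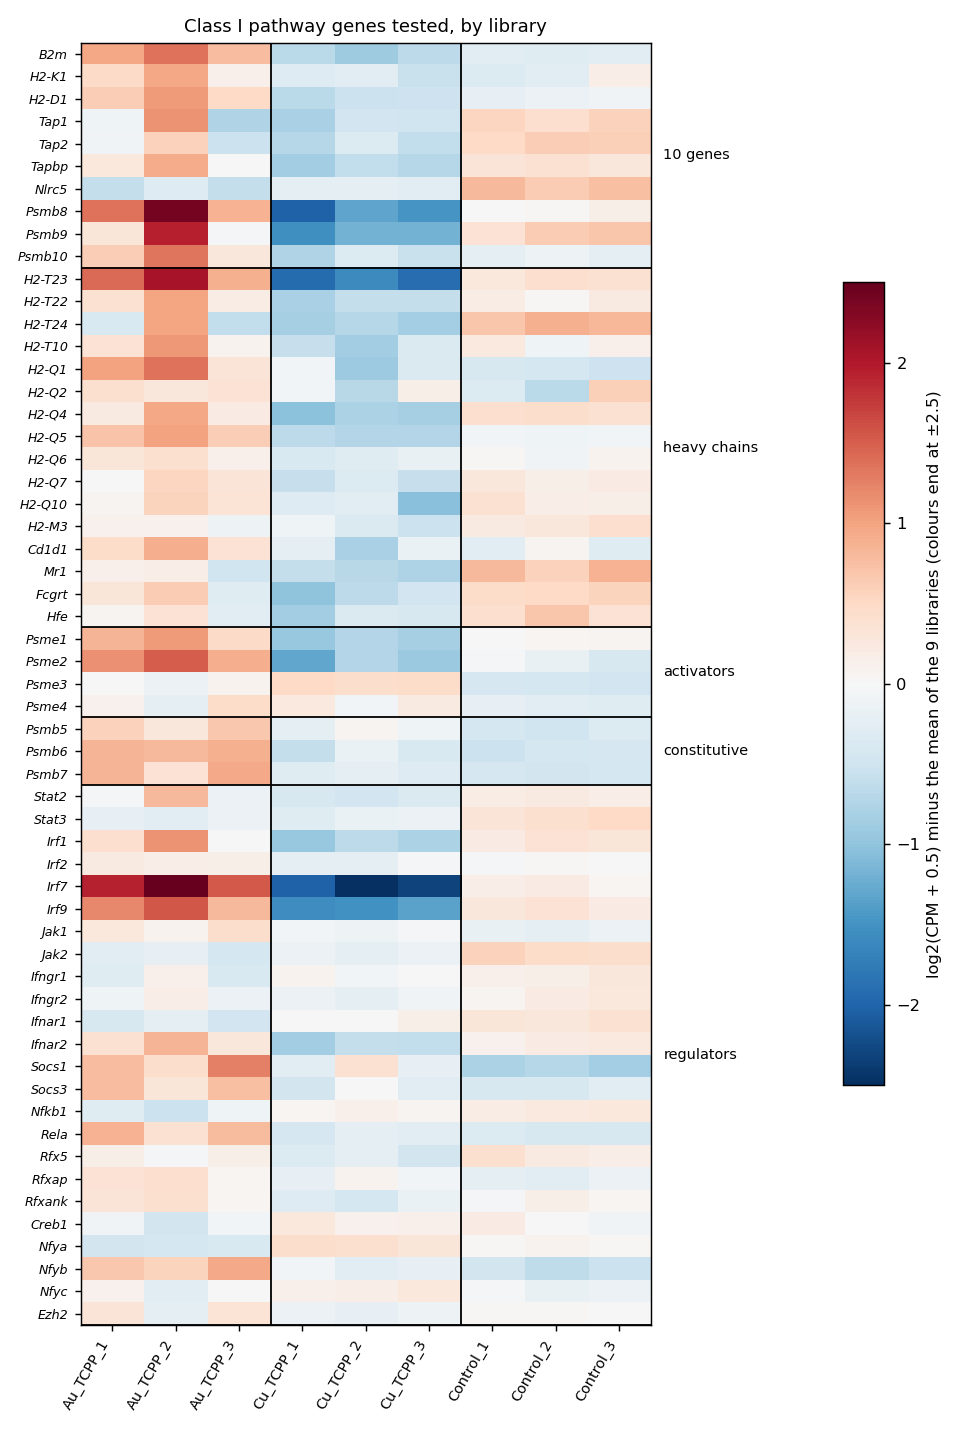
Log2 CPM of the 10 genes and of tested genes of 4 further lists in each library, centred on each gene's mean over the 9 libraries (red higher, blue lower). Psmb8, H2-T23, Irf7 and Irf9 are lowest in Cu_TCPP and highest in Au_TCPP, with Au_TCPP replicate 2 the darkest red, while Nlrc5 and Jak2 are highest in Control.

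Cells of another type could carry class I genes too, so their markers were counted. Of 11 defining markers of leukocytes and antigen-presenting cells, Ptprc, Adgre1, Csf1r, Itgam, Cd3e, Cd8a, H2-Aa, H2-Ab1, H2-Eb1, Cd86 and Itgax, no library had more than 4 reads of any one. The summed level of the 13 macrophage and leukocyte markers was 79.8 to 98.9 CPM in Au_TCPP, 27.8 to 31.3 CPM in Cu_TCPP and 40.8 to 44.4 CPM in Control, and that of 10 class II and antigen-presenting cell markers was 48.0 to 81.2, 8.17 to 9.26 and 19.9 to 25.6 CPM in the same groups. Of these, 3 and 2 genes had enough reads to be tested. Cd74, the class II invariant chain, and H2-DMa, a class II peptide editor, rose in Au_TCPP by 1.59 ± 0.20 and 1.03 ± 0.18 and fell in Cu_TCPP by 1.35 ± 0.22 and 1.62 ± 0.21 on the log2 scale (edgeR adjusted p from 9.02e-06 to 0.000349). Cd68, a lysosomal protein, rose in Au_TCPP by 1.18 ± 0.14 and fell in Cu_TCPP by 1.26 ± 0.15 on the log2 scale (edgeR adjusted p = 3.68e-06 and 2.39e-05). The other markers tested went differently: Mrc1, a mannose receptor, rose by 1.43 ± 0.41 in Au_TCPP and 1.39 ± 0.41 in Cu_TCPP on the log2 scale (edgeR adjusted p = 0.00814 and 0.0161). Cd14, a lipopolysaccharide co-receptor, rose by 0.75 ± 0.12 in Au_TCPP on the log2 scale and had −0.06 ± 0.12 in Cu_TCPP, which did not pass (edgeR adjusted p = 3.99e-05 and 0.694). The part of these levels in the class I results was not tested. In bulk RNA, fewer cells with a transcript and less of it per cell cannot be told apart.

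Each of the 10 genes was compared with 11155 named genes by the root mean square (RMS) difference of centred log2 CPM over the 9 libraries, as a description. Nearest to B2m were Nmi, Ifi35 and Lamp2, at 0.139, 0.141 and 0.151, where the SD of B2m itself over the libraries was 0.768. Tapbp lay nearest to Irf1, H2-Q4 and Hint2, at 0.106, 0.126 and 0.128. Nearest to Tap1 were Dtx3l, Kif9 and Ly6e, at 0.182, 0.183 and 0.193. Tap2 was closest to Parp10, Inca1 and Aldh6a1, at 0.0918, 0.105 and 0.119. Psmb9 was closest to Parp14, C3 and Trem2, at 0.235, 0.275 and 0.309. For Psmb8 the nearest were Cldn4, Igtp and Ifit3, at 0.271 to 0.284, against its own SD of 1.41. Nlrc5 was nearest to Wdr13, Slc27a1 and Zswim8, at 0.0637, 0.0724 and 0.0844. H2-D1 was nearest to Tor3a, Plod1 and Efna1, at 0.0672, 0.0914 and 0.0994. For H2-K1 the nearest were Stx8, Phf11c and Gng11, at 0.116, 0.130 and 0.130. For Psmb10 they were Tmco4, Use1 and Tor3a, at 0.160, 0.167 and 0.167. Among the members themselves the closest pair was H2-D1 with Psmb10, at 0.148, then Tap1 with Tap2, at 0.216, and the farthest was Nlrc5 with Psmb8, at 1.57.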

How the data were processed

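RNA of 9 libraries of 4T1 cells, 3 in each group as titled, was read; libraries were made with QIAGEN's QIAseq FX Single Cell kit, per the labels' protocols. The submitters' processing notes name mm10, Bowtie 0.12.9, Cufflinks 2.1.1 and HTSeq. The authors deposited read counts per gene and library, not normalized, per the file headers. The deposited FPKM scale these counts by gene length and library, per the file headers, with a factor per library of 0.875 to 1.24 that no source explains. Their log2 fold changes and their adjusted p-values are deposited per comparison, from a test that no header names.

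The test of counts was the quasi-likelihood test of edgeR 4.0.16 (R 4.3.3), robust, after TMM scaling and the filterByExpr filter. All 9 libraries entered, each group had its own mean, and p-values were adjusted by Benjamini-Hochberg over 13915 genes. The SE is the absolute log2 fold change divided by the square root of F. A gene rose or fell where its adjusted p was under 0.05; otherwise it did not pass. Dispersion in common was 0.0112 (coefficient of variation 10.6%). All 10 members are named. Of the other lists the rule names, per comparison, up to 4 called genes with the smallest p, and for each member the 3 most similar genes. Not all genes that the rule names for the other lists are given. Irf7, Irf1, Socs1 and Erap1 are given outside the rule. Members and lists were chosen with earlier results of these data known. Of the 118 genes in 10 other lists, 117 were matched. The fit was tested on simulated data. Ratios used counts per length and exact permutation tests. Transcript windows of 50 bases and exon overlaps were taken from GENCODE M21. Alternatives were RLE factors, library totals alone, DESeq2 1.42.0, no filter, a filter of 1 CPM in 3 libraries, a replicate block, a fit of only the 6 libraries compared, length offsets, limma 3.58.1 on log2(FPKM + 1) and log2(FPKM + 0.1), FPKM ratios, counts plus 1 before the ratio, and leaving out each library. Tables were handled in Python 3.11.15. Values of 2 listed genes are not reported here.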

Additional observations from a re-analysis of the deposited data

How the results depend on the processing

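Among the member log2 fold changes under alternatives, 526 kept their direction and their side of the threshold, 20 lost and 20 gained the threshold, and 4 changed sign. The counts of members called in Cu_TCPP against Control stayed within 1.5 times. With library totals alone, genes that rose numbered 2626 in Au_TCPP against Control and 2830 in Au_TCPP against Cu_TCPP, with 7098 and 6526 that fell, and 3 members rose in Au_TCPP against Control. Members that fell in Au_TCPP against Control, 1 in the report, were 2 with library totals alone, no filter, the filter of 1 CPM, DESeq2 and both limma settings, and 1 to 5 with a library left out. Nlrc5, the 1 member that fell in Au_TCPP against Cu_TCPP, was lost (0 fell) with the 6 libraries alone and with length offsets, and leaving out a library gave 0 to 1. The cause was not tested.

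Signs changed in Au_TCPP against Control for Tap1 (−0.95 without Au_TCPP replicate 2 to 0.0866 without replicate 3), for Tapbp (−0.28 with library totals, and −0.21 without replicate 2 to 0.27 without replicate 3) and for Psmb9 (−0.49 without replicate 2 to 0.77 without replicate 3). They changed for the log2 ratios of H2-D1 to B2m in Cu_TCPP against Control (−0.0809 without Cu_TCPP replicate 2 to 0.0983 without Cu_TCPP replicate 1, −0.0169 without Control replicate 1) and of Psmb10 to Psmb7 (−0.70 without Au_TCPP replicate 2 to 0.12 without replicate 3 against Control, and −0.17 to 0.65 for the same libraries against Cu_TCPP). In Cu_TCPP against Control, B2m lost the threshold without Cu_TCPP replicate 2 (edgeR adjusted p = 0.0695), H2-D1 without Control replicate 3 or Cu_TCPP replicate 1 (0.0539 and 0.0593), and Psmb8 and Psmb9 with no filter (0.0535 and 0.0721).

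Replicates with the same number correlated at −0.0846 to 0.0897 in their deviations from the group means. No pairing by number was thus visible, but so few libraries a group cannot settle whether same-numbered samples were handled together. With the replicate block, 2 members fell in Au_TCPP against Control and 0 fell in Au_TCPP against Cu_TCPP, and 7 members fell in Cu_TCPP against Control. Depth limits Psmb9 most, with 27 reads in its lowest library.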

Other observations

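Of 9 genes of peptide loading and trimming in the ER, 5 rose and 3 fell in Au_TCPP, and 2 rose and 2 fell in Cu_TCPP, each against Control. Over all genes tested, 34.4% rose and 34.7% fell in Au_TCPP, and 19.2% rose and 21.2% fell in Cu_TCPP. Calr and Pdia3, the ER chaperone calreticulin and the oxidoreductase of the peptide loading complex, rose with both materials against Control, by 1.61 ± 0.09 and 1.44 ± 0.09 in Au_TCPP and by 0.82 ± 0.09 and 0.32 ± 0.09 in Cu_TCPP on the log2 scale (edgeR adjusted p from 1.77e-09 to 0.00916). Tapbpl, a tapasin relative that edits peptides, fell by 0.64 ± 0.18 in Cu_TCPP and had 0.41 ± 0.17 in Au_TCPP (edgeR adjusted p = 0.0103 and 0.0475), or 0.14 ± 0.14 without Au_TCPP replicate 2 (edgeR adjusted p = 0.347). Erap1, the ER aminopeptidase that trims class I peptides, passed in neither comparison with Control, with log2 fold changes of 0.17 ± 0.18 in Au_TCPP and 0.16 ± 0.18 in Cu_TCPP (edgeR adjusted p = 0.429 and 0.502). Of 5 cytosolic peptidases tested, 2 rose and 2 fell in Au_TCPP (1 and 3 with library totals alone), and 2 rose in Cu_TCPP. With library totals alone, 2626 of all 13915 genes rose and 7098 fell in Au_TCPP against Control. Thop1, which destroys class I peptides in the cytosol, fell by 1.01 ± 0.09 in Au_TCPP and rose by 0.32 ± 0.09 in Cu_TCPP on the log2 scale (edgeR adjusted p = 1.92e-07 and 0.00981). Socs1, a feedback inhibitor of JAK signalling, rose with both, by 1.94 ± 0.28 in Au_TCPP and 0.98 ± 0.29 in Cu_TCPP on the log2 scale (edgeR adjusted p = 2.57e-05 and 0.0153); its level was 5.83 ± 1.82 CPM in Au_TCPP, 2.99 ± 0.911 CPM in Cu_TCPP and 1.51 ± 0.0972 CPM in Control (SD, n = 3).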
